A study of Drosophila melanogaster with 48 samples.

Results

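Poly(A)+ RNA of Drosophila S2 cells that had received double-stranded RNA (dsRNA) against Rrp6 was compared with that of S2 cells that had received dsRNA against GFP, gene by gene. The members are all 15065 gene IDs of the authors' table for this pair of treatments, of which 12347 had at least 1 read in the 4 libraries and 7905 had enough reads to be tested. The study compared knockdowns of 3 exosome subunits in S2 and S3 cells, and 4 of its 48 samples enter here. Both groups were S2 cells, a hemocyte-like line from late embryos, transfected with 2 ug of dsRNA and harvested for RNA on day 5. GFP dsRNA has no target in these cells and is the control. The Rrp6 group and the GFP group each have 2 libraries, labelled biological replicates 1 and 3. Nothing in the labels says that replicates came from separate cultures, so p-values measure only the spread between these samples, which may be technical.

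Rrp6 is a 3'-to-5' exonuclease bound to the exosome, the complex that trims precursors of stable RNAs and degrades faulty or short-lived transcripts. In the nucleus it takes part in maturing ribosomal, small nuclear and small nucleolar RNAs and in removing unspliced and noncoding transcripts. In Drosophila cells Rrp6 also has roles in cell division that do not depend on the exosome core. The results are ordered by gene class, from mitochondrial and metabolic genes through protein turnover, detoxification and signalling to the RNA machinery.

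The deposited means allowed the whole reads of each library to be recovered. GFP replicate 1 held 8248223 reads on genes and GFP replicate 3 held 939776, and the Rrp6 libraries held 5737608 and 777607. The libraries are called GFP-1 and GFP-3 by replicate, and Rrp6-deep and Rrp6-shallow by depth, because the means do not tie an Rrp6 library to a replicate number. Levels are given in RPM, reads per 1000000 reads on genes with TMM scaling, in the order GFP-1, GFP-3, Rrp6-deep, Rrp6-shallow, and levels of different genes were not compared because no gene lengths were used. Changes are log2 ratios of Rrp6 over GFP dsRNA ± SE, with 2 libraries a group, from edgeR's quasi-likelihood fit with the depth class of the library as a block. A gene is called at a Benjamini-Hochberg adjusted p of at most 0.05 over all genes tested. By this rule 1598 of 7905 genes (20.2%) rose and 1335 (16.9%) fell, and the median change was -0.05. Both Rrp6 libraries lay above both GFP libraries for 1882 of the 7905 genes (23.8%) and below both for 1868 (23.6%). Groups without overlap were thus common, and some called genes, such as Prp31 and Polr2F, had groups that overlapped. Without the block, edgeR called 9 genes higher and 0 lower, while 1392 had an unadjusted p under 0.05, and DESeq2 with the block called 1056 and 779. Without GFP-1 the counts were 909 and 725, and without Rrp6-deep 756 and 413, while 574 genes (7.26%) rose and 317 (4.01%) fell in each of the 4 fits that leave out a library. Every class count that follows depends on the block, since without it at most 1 member of any class was called. The filter on low counts stood at about 6.86 reads per 1000000 reads on genes, before TMM scaling. Of the 7905 genes, 837 reached that level in neither GFP library, so that the filter itself favoured a rise in them, and 452 of them rose. Among the 7068 at that level in a GFP library, 16.2% rose. Named genes that rose from under this level in both GFP libraries are marked. Because the level is unscaled, genes close to it can lie under 6.86 in scaled RPM and stay unmarked. Rab32, at 6.61 and 3.48 RPM in the GFP libraries, Snap25 and Ir40a are such genes, and their rises need the same caution. A call counted as lost without a library includes genes that had too few reads to be tested in that fit.

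Reads of Rrp6 itself were at 64.9 and 57.9 RPM in the GFP libraries and at 368 and 1291 in the Rrp6 libraries. Both Rrp6 libraries lay above both GFP libraries, so the reads do not show the knockdown, which the labels say was checked by Western blot. The change was 3.45 ± 0.34 (edgeR adjusted p 1.1e-07), and whether reads of the transfected dsRNA are among these was not tested. Libraries are therefore called by their labels.

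The hemocyte label was checked on 27 identity genes, of which 25 had a read and 21 were tested. The GATA factor gene srp had 215 and 115 and 235 and 193 RPM, and Hml, which encodes the clotting protein hemolectin, 317 and 35.9 and 224 and 93.9. NimC4 and atilla were at 0 in the 4 libraries. The summed level of the list was 7820 and 6380 RPM in the GFP libraries and 6810 and 5790 in the Rrp6 libraries, which overlap. Of the 20 neuronal and muscle markers 19 had a read and Syx1A was at 0, and the sums were 178 and 206 against 437 and 573. Fat body and germline markers, 19 with a read of 19, summed to 130 and 127 against 154 and 170. These 2 sums were higher in both Rrp6 libraries, and their part in the results was not tested. In bulk RNA, fewer cells of a type and less RNA per cell cannot be told apart.

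**Figure D1:**
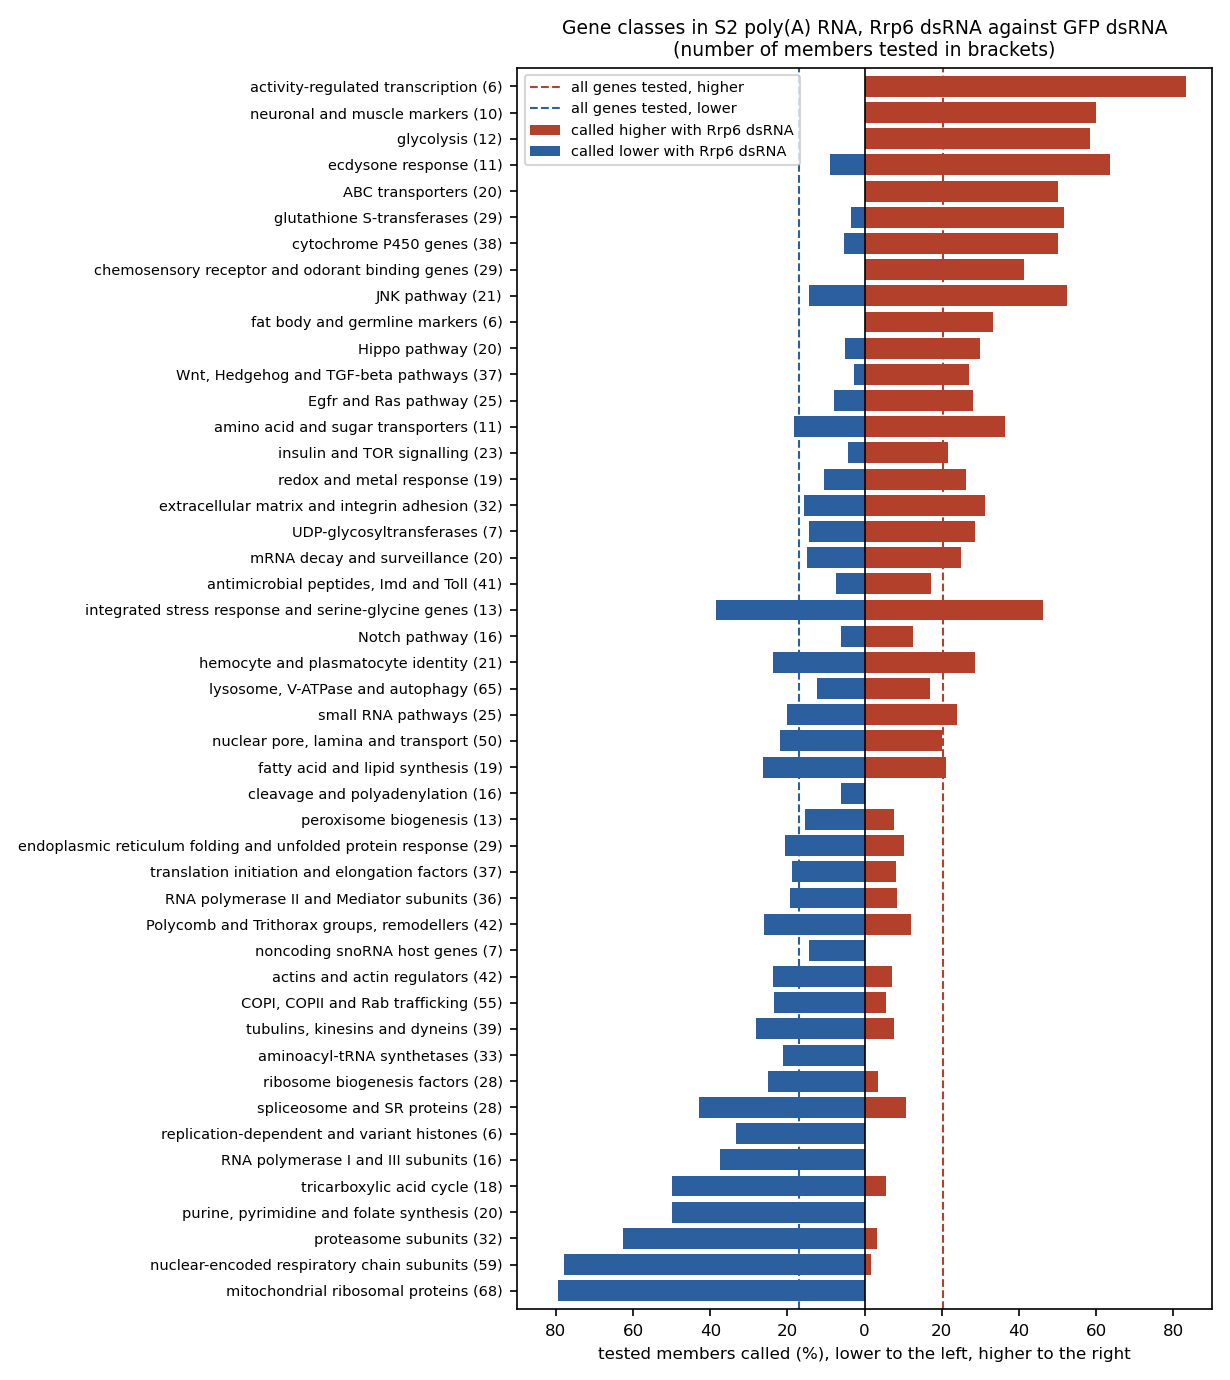
Share of tested members called higher (red, to the right) or lower (blue, to the left) with Rrp6 dsRNA in each gene class, in percent, with the number tested in brackets. Dashed lines mark the shares over all genes tested, 20.2% higher and 16.9% lower, and the mitochondrial ribosomal and respiratory chain classes reach 79.4% and 78.0% lower.

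Genes for mitochondrial translation and respiration were lower in the Rrp6 libraries. Of 68 tested mitochondrial ribosomal protein genes, whose products translate the few messages of the organelle's own genome, 54 fell (79.4%) and 0 rose, with a median change of -0.96. Among 59 tested nuclear genes for subunits of the respiratory chain and ATP synthase 46 fell (78.0%) and 1 rose, with a median of -0.89. Of 18 tricarboxylic acid cycle genes 9 fell (50%) and 1 rose, with a median of -0.57. The succinate dehydrogenase genes, SdhA among them, are on the respiratory and the cycle list and so are counted in both classes. Summed over the class, mitochondrial ribosomal protein genes held 4299.5 and 7282 RPM in the GFP libraries and 2479.6 and 3492 in the Rrp6 libraries. The respiratory genes held 13292 and 17067 against 7474 and 8640.1. Neither pair of sums overlapped.

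The large-subunit gene mRpL55 was at 28.4 and 29.0 RPM in the GFP libraries and at 5.37 and 4.02 in the Rrp6 libraries. Among members with at least 50 reads it had the lowest change, at -2.50 ± 0.38 (edgeR adjusted p 2.7e-05), and the groups lay far apart although Rrp6-shallow held 3 reads of it. Another large-subunit gene, mRpL54, fell by 1.93 ± 0.33 and the small-subunit gene mRpS14 by 1.96 ± 0.25. Complex I takes electrons from NADH into the chain, and its subunit gene ND-15 was at 117 and 231 RPM with GFP dsRNA and at 33.3 and 69.7 with Rrp6 dsRNA. That is a change of -1.78 ± 0.24 (edgeR adjusted p 6.2e-06), and within each depth class the Rrp6 library was the lower one. Complex I genes ND-MWFE and ND-AGGG fell by 1.50 ± 0.28 and 1.44 ± 0.38. The exception in the respiratory class was COX7AL, a cytochrome c oxidase subunit gene with 4 and 2 reads in the GFP libraries and 45 and 8 in the Rrp6 libraries, which rose by 3.38 ± 0.77. It was under the filter level in both GFP libraries, and 0 of the 57 respiratory genes at that level rose.

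In the cycle itself, the succinyl-CoA synthetase subunit gene ScsbetaG was at 79.6 and 89.2 against 32.7 and 25.5 RPM and fell by 1.42 ± 0.26 (edgeR adjusted p 0.00021). The citrate synthase gene kdn fell by 1.09 ± 0.23 and SdhA, for the flavoprotein of succinate dehydrogenase, by 1.05 ± 0.26. Idh, also on this list, is for the NADP-dependent isocitrate dehydrogenase and not for the NAD-dependent enzyme of the cycle. It went the other way, from 122 and 124 to 237 and 223 RPM, and rose by 0.91 ± 0.22. The 11 mitochondrially encoded genes had 0 reads in each library, so they are not measured in this table. Without Rrp6-deep, 25 mitochondrial ribosomal and 28 respiratory genes were called lower, and calls were lost for ND-AGGG without Rrp6-deep, COX7AL without GFP-1 or Rrp6-deep, and Idh without GFP-1. The genes mRpS14, ND-15 and ND-MWFE overlap Naa15-16, CG3436, Gs1, Pus10 and TppII, which were called the same way, and the sources used here do not state if counting used the strand.

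**Figure D2:**
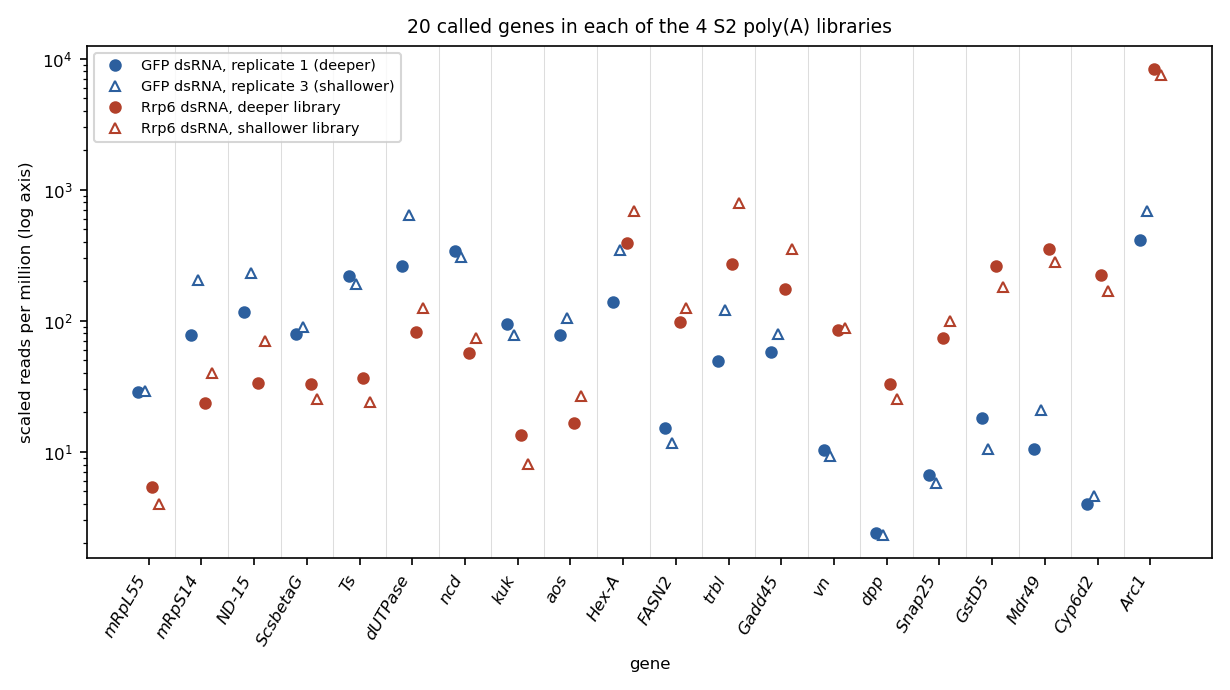
Level of 20 called genes in each library, in RPM on a log axis: circles are the deeper and triangles the shallower library of the GFP (blue) and Rrp6 (red) groups. mRpL55 fell from 28.4 and 29.0 to 5.37 and 4.02, whereas Cyp6d2 and Arc1 at the right lie far higher in both Rrp6 libraries.

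Glycolysis genes rose while the mitochondrial classes fell. Of 12 tested glycolysis genes 7 rose (58.3%) and 0 fell, with a median of 0.68. The hexokinase gene Hex-A, whose enzyme commits glucose to the pathway, was at 139.5 and 348 RPM in the GFP libraries and 391 and 684 in the Rrp6 libraries. It rose by 1.23 ± 0.21 (edgeR adjusted p 0.00012), and the lowest Rrp6 value was just above the highest GFP value. Ldh, for the lactate dehydrogenase that regenerates NAD while reducing pyruvate, was at 34.9 and 82.3 against 144 and 158 and rose by 1.60 ± 0.27 (edgeR adjusted p 9e-05). Pfrx, for the enzyme that makes and breaks the allosteric activator of phosphofructokinase, rose by 1.04 ± 0.23, and it overlaps CG14200, called the same way. Pfk, Tpi, Ald1 and Pglym78 made up the rest of the 7, while Pgi, Gapdh1, Gapdh2, Pgk and Eno did not pass the test. The number called was 4 without GFP-1 and 2 without Rrp6-deep, and Ldh was lost without Rrp6-deep.

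Among 11 tested amino acid and sugar transporter genes 4 rose (36.4%, beside 20.2% over all genes) and 2 fell (18.2%, beside 16.9%). The monocarboxylate transporter gene Mct1 was at 12.9 and 8.11 against 42.7 and 40.2 RPM and rose by 1.88 ± 0.32 (edgeR adjusted p 0.00011). MFS3, of the major facilitator family, rose by 2.04 ± 0.30 and the trehalose transporter gene Tret1-1 by 1.04 ± 0.24. Those that fell were mnd, for the light chain of an amino acid exchanger, by 1.03 ± 0.26 and gb, for a cystine-glutamate exchanger subunit, by 0.97 ± 0.37. Higher calls numbered 2 without GFP-1, and lower calls 1 without GFP-1 and 0 without Rrp6-deep. A call was lost for Tret1-1 without GFP-1, mnd without Rrp6-deep, and gb without GFP-1 or Rrp6-deep.

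Genes of fatty acid and lipid synthesis moved in both directions, 4 higher (21.1%) and 5 lower (26.3%) of 19 tested, beside 20.2% and 16.9% over all genes. The fatty acid synthase gene FASN2 was at 15.3 and 11.6 RPM with GFP dsRNA and at 97.2 and 126 with Rrp6 dsRNA, in groups that did not overlap. It rose by 2.93 ± 0.28 (edgeR adjusted p 8.6e-08). Baldspot, a fatty acid elongase gene, rose by 2.60 ± 0.32, and it overlaps the gene of the small nuclear RNA U12, which rose too, so its reads are uncertain. The acyl-CoA synthetase gene bgm rose by 1.13 ± 0.33. The genes Agpat3 and Agpat2, for acyltransferases that make phosphatidic acid, fell by 0.99 ± 0.26 and 0.86 ± 0.25, and Pcyt1, for an enzyme of phosphatidylcholine synthesis, by 0.81 ± 0.21. Of the 5 lower calls 0 were left without GFP-1 and 0 without Rrp6-deep, and the number higher was 2 in either case. The calls lost in this way include those of bgm, Agpat3, Agpat2 and Pcyt1.

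Most proteasome subunit genes were slightly lower. Of 32 tested, 20 fell (62.5%) and 1 rose, with a median of -0.60. The fallen genes spanned both parts of the particle, with the ATPase gene Rpt6 of the regulatory cap at -0.95 ± 0.20 and the core genes Prosbeta3 and Prosalpha3 at -0.86 ± 0.22 and -0.83 ± 0.21. Prosalpha3 was at 271 and 285 RPM in the GFP libraries and at 164 and 145 in the Rrp6 libraries (edgeR adjusted p 0.0032). The gene that rose, Prosbeta2R2, is a paralog of a core subunit gene, with 8 and 3 reads against 87 and 15 and a change of 3.43 ± 0.63. It was under the filter level in both GFP libraries, and 0 of the 31 genes at that level rose. The number called lower was 7 without GFP-1 and 1 without Rrp6-deep, and these 4 genes lost their calls in the latter fit. Rpt6 and Prosbeta3 overlap CG1801 and CG11980, called the same way.

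**Figure D3:**
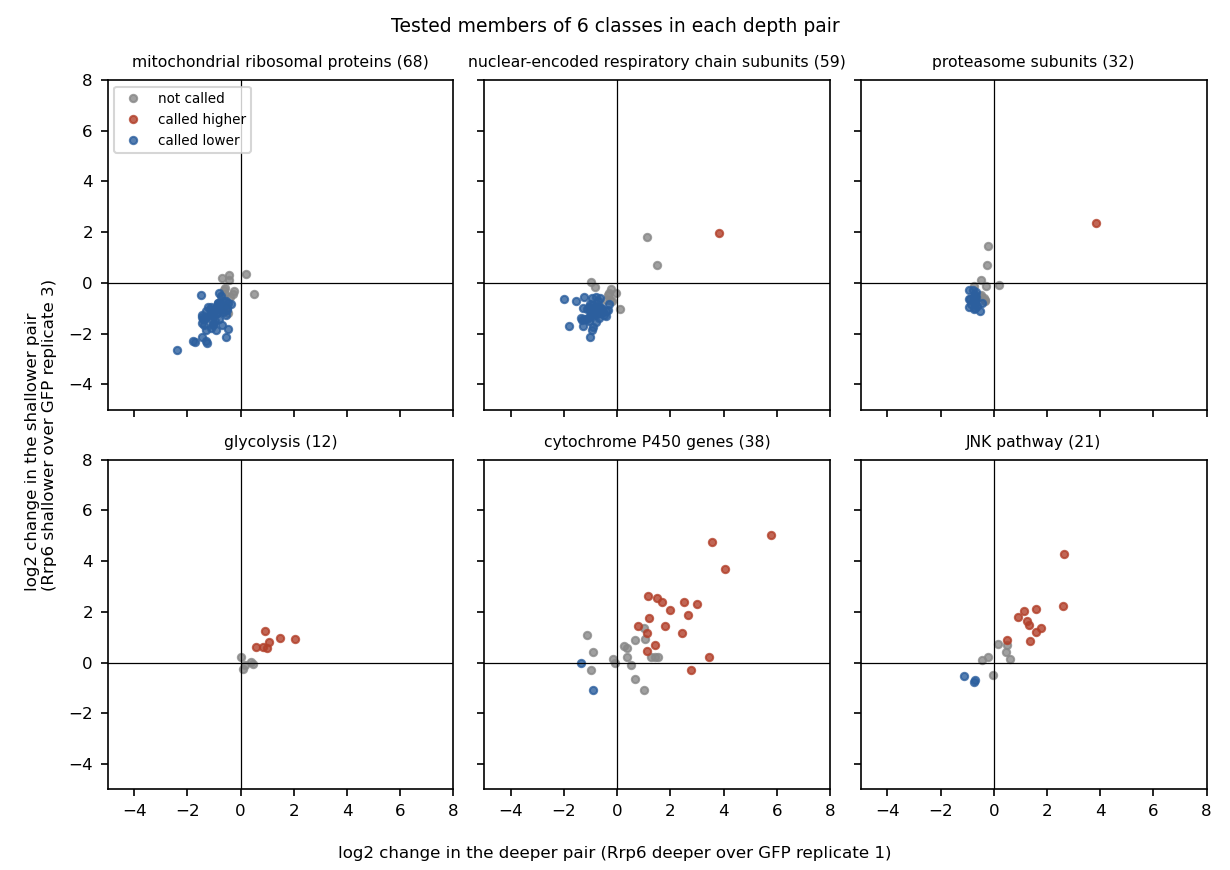
Log2 change in the shallower pair of libraries (vertical axis) against that in the deeper pair (horizontal axis) for each tested member of 6 classes, with 0.5 added to each count. Most points of the mitochondrial and proteasome classes lie in the lower left quadrant, and most of glycolysis, cytochrome P450 and JNK genes in the upper right. Of 38 P450 genes 27 were up and 4 down in both pairs, and of 21 JNK genes 15 were up and 4 down in both. Up in both pairs were 3 respiratory genes, COX7AL among them, and the proteasome gene Prosbeta2R2.

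Translation genes outside the ribosome showed few calls. Of 37 tested initiation and elongation factor genes 7 fell (18.9%) and 3 rose, and of 33 aminoacyl-tRNA synthetase genes 7 fell (21.2%) and 0 rose, shares near the 16.9% over all genes. Subunit genes of the elongation factor that delivers tRNA fell, eEF1delta by 1.06 ± 0.19 and eEF1gamma by 0.67 ± 0.18. The subunit-joining factor gene eIF5B fell by 0.94 ± 0.20. The translocase gene eEF2 was at 4910.3 and 3449 against 8958 and 6662 RPM and rose by 0.91 ± 0.17 (edgeR adjusted p 0.00036). Also higher were eIF2D, by 1.15 ± 0.22, which overlaps the risen glycolysis gene Pglym78, and the cap-binding repressor gene eIF4EHP, by 0.64 ± 0.24. The mitochondrial synthetase gene TyrRS-m fell by 1.41 ± 0.32, and ArgRS and ArgRS-m by 1.28 ± 0.25 and 0.87 ± 0.34. TyrRS-m and ArgRS-m overlap CG3594 and mRpS9, called the same way. The factors called lower numbered 4 without GFP-1 and 4 without Rrp6-deep, and the synthetases 2 without GFP-1, 4 without GFP-3, 1 without Rrp6-deep and 4 without Rrp6-shallow. The call did not hold for eEF1gamma without GFP-1, eIF4EHP without GFP-1, Rrp6-deep or Rrp6-shallow, ArgRS without GFP-1 or Rrp6-deep, and ArgRS-m without any 1 of the 4 libraries.

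In the secretory pathway the translocon genes fell. Of 29 tested genes for folding in the endoplasmic reticulum and the unfolded protein response 6 fell (20.7%) and 3 rose (10.3%). Over all genes 16.9% fell and 20.2% rose. The 3 subunit genes of the Sec61 channel, through which new proteins enter the endoplasmic reticulum, each fell, Sec61gamma by 1.45 ± 0.25, Sec61alpha by 1.12 ± 0.21 and Sec61beta by 1.09 ± 0.20. Sec61alpha was at 478 and 306 RPM with GFP dsRNA and at 236 and 129 with Rrp6 dsRNA (edgeR adjusted p 0.00023), without overlap. TRAM, for a protein that helps chains through the channel, fell by 1.13 ± 0.22. The genes that rose were the stress sensor genes Ire1, by 0.82 ± 0.24, and PEK, by 0.81 ± 0.24, and crc, the fly ATF4 gene, by 0.56 ± 0.19. The chaperone gene Hsc70-3 changed by 0.24 ± 0.19 (edgeR adjusted p 0.335) and Xbp1 by 0.14 ± 0.19 (edgeR adjusted p 0.584), and neither passed the test. The number higher was 0 without GFP-3 and 1 without Rrp6-shallow. Calls were lost for Sec61gamma without Rrp6-deep, Ire1 without GFP-3 or Rrp6-deep, PEK without GFP-3, Rrp6-deep or Rrp6-shallow, and crc without GFP-1, GFP-3 or Rrp6-shallow.

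Of 55 tested COPI, COPII and Rab trafficking genes 13 fell (23.6%, beside 16.9% over all genes) and 3 rose. This list also holds the Sec61 channel genes described above, which are among the 13 and so are counted in both classes. Rab32, for a small GTPase of lysosome-related organelles, was at 6.61 and 3.48 against 53.4 and 20.1 RPM and rose by 2.95 ± 0.39 (edgeR adjusted p 5.7e-06). RabX4 rose by 1.46 ± 0.54, and it and a further risen gene, RabX2, were under the filter level in both GFP libraries. Among 65 genes of the lysosome, the V-ATPase proton pump and autophagy 11 rose (16.9%) and 8 fell (12.3%), both under the shares over all genes. Vha14-1, for a pump subunit, fell by 1.26 ± 0.22, and Vha36-2 and Vha36-3, paralogs of another, rose by 2.76 ± 0.29 and 2.12 ± 0.49, the latter from under the filter level in both GFP libraries. The retromer gene Vps35 fell by 1.05 ± 0.22 and the ESCRT gene Vps25 by 0.77 ± 0.23. Atg18b, of the family that binds phosphoinositides on autophagic membranes, rose by 1.82 ± 0.24. Of 13 peroxisome biogenesis genes 2 fell (15.4%) and 1 rose (7.69%), both under the shares over all genes. Pex11ab, for division of the organelle, fell by 1.38 ± 0.29 and Pex19, for a membrane protein receptor, by 0.90 ± 0.21. Pex14, for the docking complex, rose by 0.63 ± 0.23. Trafficking genes called higher numbered 1 without GFP-1 and 1 without Rrp6-deep, those called lower 7 without GFP-1 and 3 without Rrp6-deep, lysosomal ones 3 without Rrp6-deep, and lysosomal genes called higher 7 without GFP-3 and 7 without Rrp6-shallow. A call was lost for RabX4 and Pex14 without any 1 of the 4 libraries, Vps35 without Rrp6-deep, Vps25 without Rrp6-shallow, and Vha36-3 without GFP-1 or Rrp6-deep.

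Nucleotide synthesis genes were lower in the Rrp6 libraries. Of 20 tested genes of purine, pyrimidine and folate synthesis 10 fell (50%) and 0 rose, with a median of -0.54. The summed level was 5726 and 6448 RPM in the GFP libraries and 3546 and 3194 in the Rrp6 libraries. The thymidylate synthase gene Ts, whose enzyme makes dTMP, was at 219 and 191 against 36.5 and 24.1 RPM and fell by 2.69 ± 0.25 (edgeR adjusted p 4.6e-08). The gene dUTPase, for the enzyme that keeps uracil out of DNA, was at 264 and 643 against 81.8 and 126 and fell by 2.00 ± 0.22 (edgeR adjusted p 5.8e-07). For both genes each Rrp6 library lay below each GFP library. The deoxyribonucleoside kinase gene dnk fell by 1.81 ± 0.23, and it overlaps Smu1, called the same way. Members that did not pass the test include the inosine monophosphate dehydrogenase gene ras and the pyrimidine synthesis genes r and r-l. Each fit that leaves out a library called between 8 and 10 members lower.

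Microtubule motors and the nuclear envelope held further large decreases. Of 39 tested tubulin, kinesin and dynein genes 11 fell (28.2%, beside 16.9% over all genes) and 3 rose. The minus-end kinesin gene ncd, which acts in spindle assembly, was at 340.0 and 308 against 56.6 and 73.8 RPM and fell by 2.36 ± 0.23 (edgeR adjusted p 1.1e-07). The kinetochore kinesin gene cmet fell by 2.03 ± 0.28 and the spindle kinesin gene Klp67A by 2.01 ± 0.32. The dynein light intermediate chain gene Dlic rose by 1.29 ± 0.28, Dhc36C, for a dynein heavy chain, by 1.53 ± 0.56, and robl62A, for a light chain, by 4.14 ± 0.65. Of these 3, Dhc36C and robl62A were under the filter level in both GFP libraries. Overlapping genes called the same way are CG7789 for ncd, mRRF1 for Klp67A, CG32668 for Dlic and stet for robl62A. The lower calls numbered 5 without Rrp6-deep and the higher calls 1 without GFP-1 and 1 without Rrp6-deep. The call did not hold for Klp67A and robl62A without GFP-1 or Rrp6-deep, and Dhc36C without GFP-1, GFP-3 or Rrp6-deep.

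Nuclear pore, lamina and transport genes, 50 tested, had 11 lower (22%) and 10 higher (20%) calls, close to the shares over all genes. The lamina gene kuk was at 94.7 and 77.6 against 13.4 and 8.05 RPM and fell by 2.89 ± 0.28 (edgeR adjusted p 9.1e-08). LBR, for the lamin B receptor, fell by 1.49 ± 0.29 and the pore gene Nup35 by 1.47 ± 0.24. The A-type lamin gene LamC rose by 1.39 ± 0.25, the mRNA export cofactor gene Nxt1 by 1.22 ± 0.22 and the import receptor gene Tnpo by 1.20 ± 0.24. Nup35 and Nxt1 overlap Hou and CG5543, called the same way. Lower calls numbered 7 without GFP-1 and 7 without Rrp6-deep and higher calls 6 without Rrp6-deep, and calls were lost for LBR without GFP-1 or Rrp6-deep, and LamC without Rrp6-deep.

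Replication-dependent histone messages lack a poly(A) tail, and of 125 histone genes 8 had a read and 6 were tested. Reads without a unique alignment, which HTSeq sets apart, are not among these reads. The variant histone gene His2Av was at 592 and 459 against 155 and 148 RPM and fell by 1.80 ± 0.21 (edgeR adjusted p 1.2e-06). The centromeric histone gene cid fell by 1.54 ± 0.44. Its call was lost without GFP-3 or Rrp6-deep. The stem-loop binding protein gene Slbp, whose product ends histone messages in place of a tail, was at 148 and 259.5 against 59.4 and 101 and fell by 1.34 ± 0.22 (edgeR adjusted p 5.6e-05). It was the 1 called gene among 16 of cleavage and polyadenylation.

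Cytochrome P450 enzymes, glutathione S-transferases and efflux transporters act in detoxification, and about as many of their tested genes rose as did not. Of 82 cytochrome P450 genes 77 had a read, 38 were tested, 19 rose (50%) and 2 fell. Of 37 glutathione S-transferase genes 36 had a read, 29 were tested, 15 rose (51.7%) and 1 fell. All 27 ABC and organic anion transporter genes on another list had a read, 20 were tested, 10 rose (50%) and 0 fell. Part of each family was tested without a GFP library at the filter level, so these counts and the medians of 1.14, 0.76 and 0.98 are descriptions. A GFP library held the filter level for 20, 22 and 18 of the tested members, of which 9, 10 and 9 rose, beside 16.2% of all genes at that level. The numbers higher were 8 and 6 without GFP-1, and 7, 6 and 5 without Rrp6-deep.

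Cyp6d2, a P450 gene, was at 3.99 and 4.63 RPM in the GFP libraries and at 224 and 169 in the Rrp6 libraries. It rose by 5.69 ± 0.31 (edgeR adjusted p 2.1e-11), from 35 and 4 reads. Cyp28d2 rose by 3.77 ± 0.52 and Cyp305a1, with 4 and 0 against 53 and 5 reads, by 4.27 ± 0.88. The P450 genes that fell were Cyp12a4 by 1.11 ± 0.43 and Cyp310a1 by 0.96 ± 0.30. The transferase gene GstD5, whose family joins glutathione to electrophiles, was at 18.01 and 10.4 against 262 and 179.7 RPM and rose by 3.97 ± 0.28 (edgeR adjusted p 6.1e-10). In the same family GstD6 and GstZ2 rose by 3.22 ± 0.83 and 3.15 ± 0.62 and GstZ1 fell by 1.14 ± 0.42. Cyp6d2, Cyp28d2, Cyp305a1, GstD6 and GstZ2 were under the filter level in both GFP libraries. Such paralogs may share reads. The deposited means hold a separate HTSeq summary value for reads without a unique alignment, and it stayed out of the tests. Its part in each family is not known. Calls were lost for Cyp305a1, Cyp12a4, Cyp310a1, GstD6 and GstZ2 without GFP-1 or Rrp6-deep, and GstZ1 without GFP-1, GFP-3 or Rrp6-deep.

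The multidrug efflux pump gene Mdr49 was at 10.5 and 20.9 RPM with GFP dsRNA and at 355 and 280.3 with Rrp6 dsRNA. It rose by 4.67 ± 0.33 (edgeR adjusted p 9.6e-10), with no overlap between the groups, and the gene Sans that overlaps it was called the same way. The eye pigment transporter gene w rose by 3.34 ± 0.38 and the organic anion transporter gene Oatp30B by 2.54 ± 0.29. Of 35 UDP-glycosyltransferase genes 7 were tested, and Ugt302K1 and Ugt302C1 rose by 4.41 ± 0.53 and 2.46 ± 0.24 while Ugt317A1 fell by 0.92 ± 0.27. Ugt302K1 was under the filter level in both GFP libraries. In the authors' deposited table, at an adjusted p of at most 0.05, 53 genes of 12347 were higher (0.429%) and 4 lower (0.0324%). Of these 57 calls, 13 fell in the classes described here, with Cyp6d2, GstD5, Mdr49, w and Ugt302K1 among the higher genes of the authors' deposited table.

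Of 19 tested antioxidant and metal response genes 5 rose (26.3%, beside 20.2% over all genes) and 2 fell. Gclc, for the rate-limiting enzyme of glutathione synthesis, was at 165 and 102 against 304 and 304 RPM and rose by 1.20 ± 0.22 (edgeR adjusted p 0.00025). The ferritin heavy chain gene Fer1HCH rose by 1.07 ± 0.21, and it overlaps the light chain gene Fer2LCH, called the same way. The peroxiredoxin gene Prx6c, under the filter level in both GFP libraries, rose by 1.25 ± 0.49. The mitochondrial superoxide dismutase gene Sod2 fell by 1.06 ± 0.22, and maf-S, for a bZIP partner in antioxidant transcription, by 0.64 ± 0.24. Sod1 changed by -0.17 ± 0.21 (edgeR adjusted p 0.542) and the metallothionein gene MtnA by -0.45 ± 0.27 (edgeR adjusted p 0.192). The number higher was 2 without GFP-1 and 2 without Rrp6-deep, the number lower 1 without GFP-3, 1 without Rrp6-deep and 1 without Rrp6-shallow, and calls were lost for w without GFP-1 or Rrp6-deep, Ugt317A1 without Rrp6-shallow, Prx6c without GFP-1, GFP-3 or Rrp6-deep, and maf-S without GFP-3, Rrp6-deep or Rrp6-shallow.

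Stress signalling genes split within their class. Of 13 tested genes of the integrated stress response and of serine and glycine synthesis 6 rose (46.2%) and 5 fell (38.5%). Those that rose are regulators: trbl, Atf3, the kinase genes PEK and Gcn2, PPP1R15 and crc. Those that fell include CG11899, a phosphoserine aminotransferase gene, Shmt, for the serine hydroxymethyltransferase that feeds the folate cycle, and Sesn, for a sestrin. The pseudokinase gene trbl was at 49.6 and 120.5 RPM in the GFP libraries and at 271 and 789.8 in the Rrp6 libraries, and it rose by 2.55 ± 0.23 (edgeR adjusted p 3.7e-08). The bZIP gene Atf3 rose by 1.62 ± 0.25, whereas CG11899, Shmt and Sesn fell by 1.11 ± 0.29, 0.81 ± 0.21 and 0.79 ± 0.28. PEK and crc are also counted with the endoplasmic reticulum genes and Atf3 with the JNK genes. Shmt is counted again in nucleotide synthesis and Sesn in the insulin and TOR list. Higher calls numbered 3 without GFP-1, 3 without GFP-3 and 3 without Rrp6-deep, and lower calls 3 without GFP-1, 3 without GFP-3, 3 without Rrp6-deep and 2 without Rrp6-shallow. Leaving out 1 library ended the call of PEK without GFP-3, Rrp6-deep or Rrp6-shallow, crc without GFP-1, GFP-3 or Rrp6-shallow, CG11899 and Shmt without Rrp6-shallow, and Sesn without GFP-1, GFP-3 or Rrp6-deep.

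Of 21 tested genes of the JNK pathway, a stress kinase cascade, 11 rose (52.4%) and 3 fell, with a median of 0.68. The 11 include genes that the pathway is known to induce, such as puc, Mmp1, rpr, Ets21C, Gadd45 and Ilp8, and the 3 that fell were the TNF ligand gene egr, its receptor gene wgn and the kinase gene bsk. The listed genes scaf and kay did not pass the test in S2 cells in the joint fit with S3 cells. Their changes there were 0.52 (edgeR adjusted p 0.181) and -0.05 (edgeR adjusted p 0.944). Gadd45, a stress-induced gene, was at 58.2 and 79.9 against 176 and 350.0 RPM and rose by 1.87 ± 0.26 (edgeR adjusted p 9.7e-06). The ETS factor gene Ets21C rose by 2.55 ± 0.31, with the overlapping gene nAChRbeta3 called the same way, and the relaxin-like gene Ilp8, under the filter level in both GFP libraries, by 3.10 ± 0.82. The genes egr, bsk and wgn fell by 0.88 ± 0.24, 0.77 ± 0.23 and 0.71 ± 0.27. Each fit that leaves out a library called between 8 and 10 members higher, but of the 3 lower calls 0 were left without GFP-1 and 0 without Rrp6-deep. The call did not hold for Ilp8, egr and bsk without GFP-1 or Rrp6-deep, and wgn without GFP-1, GFP-3 or Rrp6-deep.

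Of 6 tested activity-regulated genes, which neurons induce on firing, 5 rose (83.3%), and CrebA did not pass the test. The filter level was reached in a GFP library by 4 of the 6, of which 3 rose. The capsid-like gene Arc1 was at 410.5 and 693 against 8363 and 7507 RPM and rose by 3.90 ± 0.22 (edgeR adjusted p 2.3e-11). The zinc finger gene sr, related to vertebrate Egr genes, rose by 3.26 ± 0.38 and the nuclear receptor gene Hr38 by 2.32 ± 0.56, both from under the filter level in both GFP libraries. The number was 3 without GFP-1 and 3 without Rrp6-deep, and Hr38 was lost in both cases. Of 23 insulin and TOR genes 5 rose (21.7%), a share near the 20.2% over all genes, and 1 fell. ImpL2, for a secreted protein that binds insulin-like peptides, was at 199 and 403 against 923 and 1065 and rose by 1.81 ± 0.22 (edgeR adjusted p 1.9e-06), and Pi3K21B, for the regulatory subunit of PI3 kinase, rose by 1.55 ± 0.26. Higher calls in this list numbered 2 without GFP-1 and 2 without Rrp6-deep, and lower calls 0 without Rrp6-deep and 2 without Rrp6-shallow.

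Signalling pathways of growth and patterning were described list by list. In the Egfr and Ras list 7 of 25 rose (28%, beside 20.2% over all genes) and 2 fell (8%, beside 16.9%). The ligand gene vn was at 10.4 and 9.27 against 84.7 and 88.5 RPM and rose by 3.13 ± 0.31 (edgeR adjusted p 1.1e-07). The gene rho, for the intramembrane protease that frees other Egfr ligands, was at 23.8 and 16.2 against 208 and 178 and rose by 3.23 ± 0.25 (edgeR adjusted p 4.4e-09). For both genes the Rrp6 libraries lay far above the GFP libraries. A related protease gene, stet, rose by 2.45 ± 0.26, and it overlaps the risen gene robl62A. The secreted inhibitor gene aos, which the pathway itself induces, was at 78.4 and 104.3 against 16.6 and 26.8 and fell by 2.14 ± 0.25 (edgeR adjusted p 1.2e-06). It overlaps CG33158, called the same way. The GTPase gene Ras85D fell by 0.60 ± 0.23, and its call was lost without GFP-1 or Rrp6-deep. Lower calls numbered 1 without Rrp6-deep and 4 without Rrp6-shallow.

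In the Wnt, Hedgehog and TGF-beta list 10 of 37 rose (27.0%, beside 20.2% over all genes) and 1 fell. A GFP library held the filter level for 34 of the 37, of which 7 rose, beside 16.2% of all genes at that level. The genes dpp, Wnt2 and hh were under it in both GFP libraries. The BMP ligand gene dpp was at 2.39 and 2.32 against 32.9 and 25.5 RPM and rose by 3.63 ± 0.47 (edgeR adjusted p 4.2e-06), from 21 and 2 reads in the GFP libraries. Wnt2 rose by 3.30 ± 0.55 and hh by 2.46 ± 0.62, and the type II receptor gene put fell by 1.11 ± 0.26. In the Notch list 2 of 16 rose (12.5%) and 1 fell (6.25%), both under the shares over all genes. Kul, for a metalloprotease, rose by 2.91 ± 0.59 and the glycosyltransferase gene fng by 0.85 ± 0.33. The target gene E(spl)m3-HLH fell by 2.15 ± 0.74. Kul was under the filter level in both GFP libraries. In the Hippo list 6 of 20 rose (30%, beside 20.2% over all genes) and 1 fell. Of the 18 at the filter level in a GFP library 4 rose, beside 16.2% of all genes at that level, fj and ft being under it. The upstream genes kibra, fj and ft rose by 1.02 ± 0.21, 2.63 ± 0.77 and 2.57 ± 0.75, and yki, for the coactivator that the pathway restrains, fell by 0.72 ± 0.23. Higher calls in the Wnt, Hedgehog and TGF-beta list numbered 3 without GFP-1 and 4 without Rrp6-deep, and in the Hippo list 1 without GFP-1 and 1 without Rrp6-deep. Calls were lost for hh, put, E(spl)m3-HLH, fj and ft without GFP-1 or Rrp6-deep, fng without GFP-1, GFP-3 or Rrp6-deep, and yki without GFP-1, Rrp6-deep or Rrp6-shallow.

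Of 20 ecdysone response genes 18 had a read and 11 were tested, and 7 of these rose (63.6%) and 1 fell, with a median of 1.22. Among the 7 are EcR, for the receptor of the steroid, and the early genes Eip74EF and Eip75B. Cyp18a1, for an enzyme that inactivates the hormone, was at 3.08 and 9.27 against 16.7 and 21.5 RPM and rose by 2.03 ± 0.47 (edgeR adjusted p 0.00189). The nuclear receptor gene Hr3, under the filter level in both GFP libraries, rose by 1.91 ± 0.73 and ImpL2, listed here too, as given above. The kinase gene Eip63E fell by 0.56 ± 0.21. The higher calls numbered 4 without Rrp6-deep, and calls were lost for Cyp18a1 without GFP-1 or Rrp6-deep, and Hr3 and Eip63E without any 1 of the 4 libraries.

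Hemocyte identity genes moved in both directions, with 6 of 21 higher (28.6%) and 5 lower (23.8%), beside 20.2% and 16.9% over all genes. Pvr, for the receptor of PDGF- and VEGF-like factors, was at 395 and 309 against 176 and 133 RPM and fell by 1.19 ± 0.21 (edgeR adjusted p 0.00012). The matrix genes Pxn, for peroxidasin, SPARC and LanB1, a laminin chain gene, fell by 1.19 ± 0.23, 0.87 ± 0.19 and 0.85 ± 0.23. Higher were the zinc finger and homeodomain gene zfh1, by 0.95 ± 0.21, and the crystal cell factor genes lz and peb, by 2.82 ± 0.69 and 2.52 ± 0.48, both from under the filter level in both GFP libraries. The collagen gene Col4a1 was among the 6 as well, at 0.53 ± 0.20. Of 32 extracellular matrix and adhesion genes 10 rose (31.2%) and 5 fell (15.6%), with Mp, a collagen gene, ItgaPS4, for an integrin chain, and the FGF gene ths up by 2.42 ± 0.58, 2.28 ± 0.36 and 2.25 ± 0.74. Mp and ths were under the filter level in both GFP libraries. The hemocyte and matrix lists share genes, and Pxn, SPARC, LanB1 and Col4a1 are counted in both. Hemocyte calls numbered 3 without GFP-3 and 2 without Rrp6-deep (higher), and 2 without GFP-1 and 2 without Rrp6-deep (lower). Matrix calls numbered 5 without GFP-1, 6 without GFP-3 and 3 without Rrp6-deep (higher), and 1 without GFP-1 and 1 without Rrp6-deep (lower). Leaving out 1 library ended the call of Pxn, LanB1, lz, peb, Mp and ths without GFP-1 or Rrp6-deep, and ItgaPS4 without Rrp6-deep, and Pxn overlaps CG16986, called the same way.

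Immune genes gave 7 higher (17.1%) and 3 lower (7.32%) calls among 41 tested of 75 listed, both under the 20.2% and 16.9% over all genes. The antifungal peptide gene Mtk was at 17.4 and 5.79 against 2.37 and 1.34 RPM and fell by 2.65 ± 0.59 (edgeR adjusted p 0.00139). The Toll ligand gene spz fell by 1.33 ± 0.32 and the antibacterial peptide gene DptB by 1.07 ± 0.41. The receptor genes Toll-9, PGRP-LE and Toll-7 rose by 3.48 ± 0.86, 2.14 ± 0.52 and 1.52 ± 0.46. Of the 36 genes at the filter level in a GFP library 4 rose, beside 16.2% of all genes at that level, and Toll-9 and PGRP-LE were not among the 36. None of the 3 lower calls was kept without GFP-1, where DptB changed by 0.19, or without Rrp6-deep. The higher calls numbered 3 without GFP-1 and 1 without Rrp6-deep, and calls were lost for Mtk, spz, Toll-9 and PGRP-LE without GFP-1 or Rrp6-deep, DptB without GFP-1, Rrp6-deep or Rrp6-shallow, and Toll-7 without GFP-3 or Rrp6-deep.

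Of 42 actin and actin regulator genes 10 fell (23.8%, beside 16.9% over all genes) and 3 rose. The cofilin gene tsr, whose product severs filaments, was at 3723 and 3569 against 1378 and 2301 RPM and fell by 1.01 ± 0.21 (edgeR adjusted p 0.00082). Arpc3B, of the Arp2/3 nucleator, fell by 1.08 ± 0.24 and the actin gene Act42A by 0.94 ± 0.24. IRSp53, for a membrane-bending scaffold, was at 2.96 and 17.4 against 170.2 and 599 and rose by 5.52 ± 0.29 (edgeR adjusted p 2.1e-11), with the overlapping gene CG6216 called the same way. The spectraplakin gene shot, whose product links actin to microtubules, rose by 1.09 ± 0.21 and the filamin gene cher by 0.57 ± 0.20. The lower calls numbered 4 without GFP-1 and 2 without Rrp6-deep. The call did not hold for tsr and Arpc3B without Rrp6-deep, Act42A without GFP-1 or Rrp6-deep, and cher without any 1 of the 4 libraries.

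In the RNA machinery, 12 of 28 tested spliceosome and SR protein genes fell (42.9%) and 3 rose, with a median of -0.53. The Sm ring gene SmD2 was at 233 and 582 RPM with GFP dsRNA and at 98.6 and 199.8 with Rrp6 dsRNA. It fell by 1.40 ± 0.22 (edgeR adjusted p 4.6e-05), another Sm gene, SmF, by 0.98 ± 0.22 and the SR protein gene x16 by 1.13 ± 0.22. Higher were the tri-snRNP gene Prp31, by 1.28 ± 0.21, which overlaps CG7011, called the same way, hfp by 0.96 ± 0.21 and U2af50, for the factor that reads the polypyrimidine tract, by 0.60 ± 0.21. The lower calls numbered 5 without Rrp6-deep, and calls were lost for SmF and hfp without Rrp6-deep, and U2af50 without any 1 of the 4 libraries.

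Cytoplasmic decay genes gave 5 higher (25%) and 3 lower (15%) calls of 20, near the 20.2% and 16.9% over all genes. The deadenylase gene Pop2 was at 68.8 and 48.7 against 254 and 173 RPM and rose by 1.86 ± 0.23 (edgeR adjusted p 2.1e-06). HBS1, for a factor that frees stalled ribosomes, was at 103.7 and 95.0 against 364 and 326 and rose by 1.80 ± 0.21 (edgeR adjusted p 1.3e-06). Both genes were higher in each Rrp6 library than in either GFP library. The decapping enhancer gene Edc3 rose by 1.40 ± 0.25. The LSm ring gene LSm7, the helicase gene me31B and tst, the fly Ski2 helicase gene of the cytoplasmic exosome, fell by 1.06 ± 0.22, 0.90 ± 0.25 and 0.71 ± 0.21. The 5'-to-3' exonuclease gene pcm changed by -0.16 ± 0.26 (edgeR adjusted p 0.654). Lower calls numbered 1 without Rrp6-deep. The gene tst overlaps CG10375, called the same way, and calls were lost for me31B without GFP-1 or Rrp6-deep, and tst without GFP-3, Rrp6-deep or Rrp6-shallow.

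Of 16 RNA polymerase I and III subunit genes 6 fell (37.5%, beside 16.9% over all genes) and 0 rose. Of 36 RNA polymerase II and Mediator genes 7 fell (19.4%), near the share over all genes, and 3 rose. Polr3G, of polymerase III, was at 43.0 and 62.6 against 17.4 and 18.8 RPM and fell by 1.46 ± 0.28 (edgeR adjusted p 0.00031), and Polr1F and Polr3I fell by 0.86 ± 0.30 and 0.74 ± 0.25. The polymerase II genes Polr2F and Polr2G and the Mediator gene MED15 fell by 1.33 ± 0.28, 1.13 ± 0.23 and 1.13 ± 0.23. The largest-subunit gene Polr2A and the Mediator genes skd and MED24 rose by 0.87 ± 0.24, 0.92 ± 0.23 and 0.77 ± 0.22. Among 28 ribosome biogenesis genes 7 fell (25%, beside 16.9% over all genes) and 1 rose. Ns1, Surf6 and NHP2 fell by 0.91 ± 0.23, 0.76 ± 0.21 and 0.73 ± 0.23, and Nop17l rose by 0.80 ± 0.23, with the overlapping gene PolZ1 called the same way. Lower calls of polymerase I and III numbered 2 without GFP-1, 1 without Rrp6-deep and 3 without Rrp6-shallow, those of polymerase II 2 without Rrp6-deep, and those of biogenesis 4 without GFP-1, 3 without GFP-3 and 0 without Rrp6-deep. DESeq2 called 1 polymerase I and III gene lower, and calls were lost for Polr1F without any 1 of the 4 libraries, Polr3I without GFP-1, Rrp6-deep or Rrp6-shallow, Polr2F, Polr2G, MED15, skd, Ns1 and Surf6 without Rrp6-deep, Polr2A without GFP-3 or Rrp6-deep, MED24 without GFP-3, Rrp6-deep or Rrp6-shallow, NHP2 without GFP-1 or Rrp6-deep, and Nop17l without GFP-3 or Rrp6-shallow.

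Chromatin and small RNA genes moved both ways. In the Polycomb, Trithorax and remodeller list 11 of 42 fell (26.2%, beside 16.9% over all genes) and 5 rose. E(z), for the methyltransferase of PRC2, the SWI/SNF subunit gene Snr1 and the remodeller gene Acf fell by 1.14 ± 0.28, 0.96 ± 0.22 and 0.93 ± 0.27. The acetyltransferase gene Gcn5 was at 77.7 and 56.8 against 224 and 150.2 RPM and rose by 1.47 ± 0.23 (edgeR adjusted p 3.1e-05). The methyltransferase gene trx and the PRC1 gene ph-p rose by 1.42 ± 0.23 and 1.06 ± 0.36. In the small RNA list 6 of 25 rose (24%) and 5 fell (20%), near the 20.2% and 16.9% over all genes. Dcr-2, which makes siRNAs, rose by 1.24 ± 0.25, and the piRNA genes AGO3 and spn-E rose by 1.62 ± 0.30 and 1.42 ± 0.25, while the piRNA genes tej, zuc and fs(1)Yb fell by 1.79 ± 0.32, 1.24 ± 0.32 and 1.17 ± 0.30. Chromatin calls numbered 3 without GFP-1, 3 without GFP-3 and 3 without Rrp6-shallow (higher) and 2 without GFP-1 and 3 without Rrp6-deep (lower), and small RNA calls 3 without GFP-3, 2 without Rrp6-deep and 3 without Rrp6-shallow (higher) and 1 without GFP-1 and 0 without Rrp6-deep (lower). Calls were lost for E(z), Acf, tej, zuc and fs(1)Yb without GFP-1 or Rrp6-deep, Snr1 and spn-E without Rrp6-deep, and ph-p without GFP-1, GFP-3 or Rrp6-shallow, and zuc overlaps CG34163, called the same way. Of 7 noncoding snoRNA host genes 1 was called, Uhg4, which fell by 1.21 ± 0.32 and lost its call without GFP-1 or Rrp6-deep.

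Lists of sensory, neuronal, Hox and germline genes, few of which had enough reads to be tested, were examined next. Of 280 chemosensory receptor and odorant binding genes 200 had a read and 29 were tested, and 12 of these rose (41.4%) and 0 fell. A GFP library held the filter level for 21 of the 29, of which 8 rose. The ion channel gene ppk13 had 16 and 6 reads in the GFP libraries and 343 and 23 in the Rrp6 libraries and rose by 4.13 ± 0.49 (edgeR adjusted p 1.5e-06). The ionotropic receptor gene Ir40a, known from humidity sensing, had 57 and 5 against 705 and 76 reads and rose by 4.08 ± 0.30 (edgeR adjusted p 1.2e-09). Obp49a rose by 4.82 ± 0.85 with 4 and 0 against 86 and 1 reads. Of the 20 neuronal and muscle markers 10 were tested, 6 rose (60%) and 0 fell. Snap25, for a synaptic fusion protein, had 58 and 5 reads with GFP dsRNA and 469 and 74 with Rrp6 dsRNA and rose by 3.68 ± 0.32 (edgeR adjusted p 2.8e-08). The active zone gene brp rose by 2.11 ± 0.24 and the muscle gene bt by 1.76 ± 0.69.

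Of 8 Hox genes 4 were tested, none of them at the filter level in a GFP library. The genes abd-A and Antp had 17 and 0 and 26 and 0 reads in the GFP libraries and 68 and 4 and 93 and 0 in the Rrp6 libraries and rose by 2.65 ± 0.69 and 2.25 ± 0.67. In the fat body and germline list 2 of 6 tested genes rose, Lsp1beta, a larval storage protein gene, by 2.91 ± 0.71 and osk, the germ plasm organiser gene, by 1.93 ± 0.41. Of the genes named from these 4 lists, ppk13, Obp49a, bt, abd-A, Antp and Lsp1beta were under the filter level in both GFP libraries. Neuronal and muscle calls numbered 3 without GFP-1 and 3 without Rrp6-deep, and the Hox calls 0 in the same fits. Leaving out 1 library ended the call of Obp49a, abd-A and Antp without GFP-1 or Rrp6-deep, bt without any 1 of the 4 libraries, and Lsp1beta without Rrp6-deep.

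The same treatment in S3 cells, another late embryonic line, with 2 Rrp6 and 3 GFP libraries of its own, was set beside these values in a joint fit of 8984 genes. There 25.1% of genes rose and 17.4% fell with Rrp6 dsRNA. Of the same classes in S3 cells, 55 of 68 mitochondrial ribosomal, 53 of 62 respiratory, 27 of 32 proteasome and 12 of 20 nucleotide synthesis genes fell. Of 21 JNK genes 16 rose, as did 16 of 25 ABC and organic anion transporter genes and 18 of 52 P450 genes. Of 32 glutathione S-transferase genes 9 rose and 4 fell in S3 cells, beside the 25.1% and 17.4% over all genes. The difference between lines was called for 0 members of the 4 classes that fell. It was called, with the lower change in S2 cells, for 3 of the 21 JNK genes, scaf, Mmp1 and kay, and for 3 of the 25 transporter genes, Sur, CG4822 and CG5853. Of the P450 genes 2 had the higher and 1 the lower change in S2 cells. Among glutathione S-transferase genes 2, GstE12 and GstS1, had the higher change in S2 cells and 0 the lower. Glycolysis genes had a median of 0.54 in S2 and -0.47 in S3 cells, where 0 rose and 3 fell, but the difference passed the test for 0 of 13. Over all genes the change in S2 minus that in S3 was called higher for 75 genes (0.835%) and lower for 162 (1.8%), 1 and 0 without the block. Leaving out 1 library moved these counts between 8 and 323 and between 18 and 371, the lowest without the Rrp6-deep library of S2 and the highest without the shallower S3 library with Rrp6 dsRNA.

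The Egfr inhibitor gene aos differed between the lines by -4.32 ± 0.46 (edgeR adjusted p 0.00039), since it fell in S2 cells and changed by 2.14 ± 0.33 in S3 cells, and the call held in 9 of 9 fits that leave out a library. Mct1 differed by 2.73 ± 0.40 (edgeR adjusted p 0.00276), with a change of -0.89 ± 0.25 in S3 cells, and lost its call without S2 GFP-1. Idh differed by 1.90 ± 0.33 (edgeR adjusted p 0.00739), with -1.05 ± 0.22 in S3 cells, and lost its call without S2 GFP-1 or the Rrp6-deep library of S2.

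**Figure D4:**
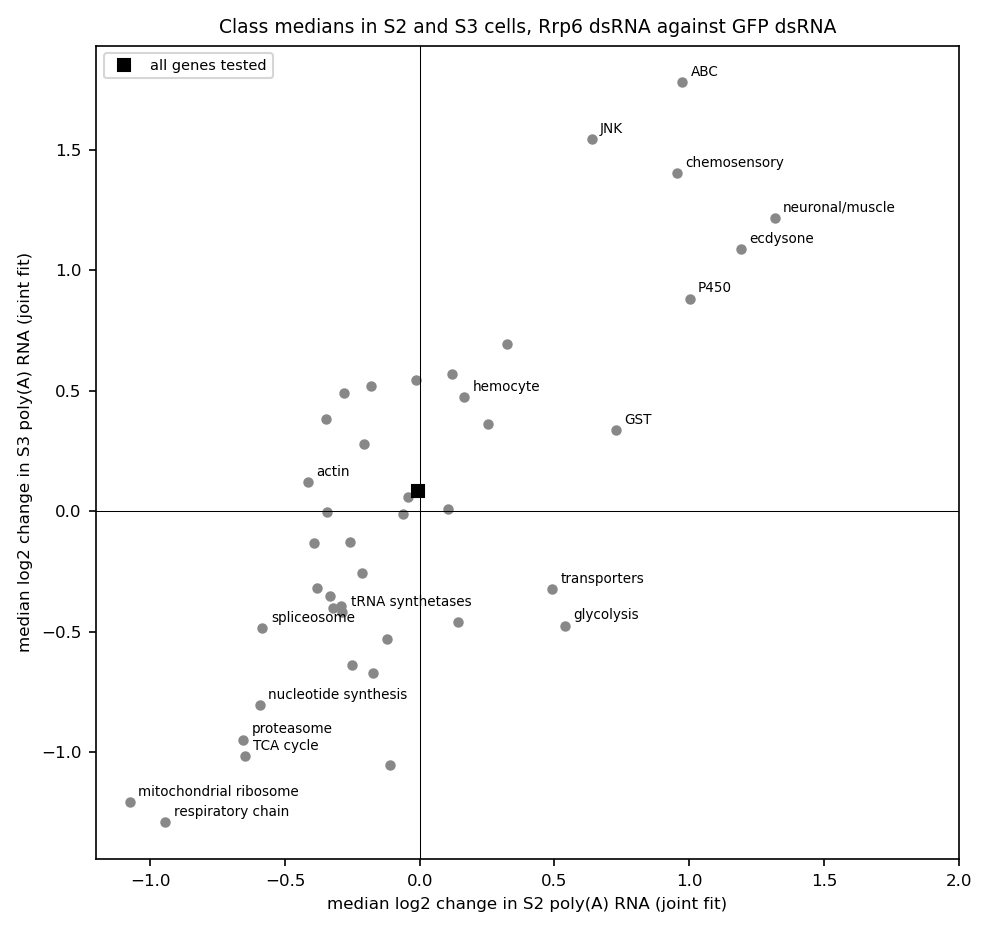
Median log2 change of each class with at least 10 tested members in S3 cells (vertical axis) against S2 cells (horizontal axis), from the joint fit, with all genes tested as a black square. Mitochondrial classes lie at the lower left, and glycolysis at 0.54 and -0.47 lies at the lower right, although no glycolysis gene passed the test of the difference.

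Csl4, another exosome subunit, was targeted in 2 further S2 libraries, and its comparison shares the GFP libraries with that of Rrp6. With Csl4 dsRNA 144 of 7905 genes (1.82%) rose and 11 (0.139%) fell, and 0 of 68 mitochondrial ribosomal, 0 of 59 respiratory and 0 of 32 proteasome genes were called. The median changes of these classes with Csl4 dsRNA were -0.26, -0.225 and -0.24, beside -0.01 over all genes. With so few lower calls in all, counts of 0 do not show that these classes were unchanged. In the direct contrast of Rrp6 with Csl4 dsRNA 628 genes (7.94%) were higher and 433 (5.48%) lower, and 0 and 0 without the block, with 512 genes at an unadjusted p under 0.05. Of the mitochondrial classes 23 of 68 and 29 of 59 genes were lower with Rrp6 than with Csl4 dsRNA, whereas 1 proteasome gene was lower and 1 higher. Higher with Rrp6 dsRNA were 6 of 38 P450, 6 of 29 transferase, 6 of 21 JNK and 5 of 11 ecdysone genes. Leaving out 1 of these 4 libraries gave between 133 and 586 higher and between 50 and 367 lower calls over all genes. The counts were 161 and 101 without the deeper and 307 and 207 without the shallower Csl4 library, and 133 and 50 without Rrp6-deep.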

How the data were processed

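Poly(A)+ RNA of 2 GFP and 2 Rrp6 dsRNA libraries of S2 cells was compared. Per the submitters' processing notes, the tools were CASAVA 1.8 and cutadapt 1.0, then TopHat 1.4.1 on the dm3 build, HTSeq 0.5.3p9, and DESeq 1.9.11. Per the file headers DESeq estimated variance per condition by local fit. The signal values are mean counts per group, each library divided by its DESeq size factor, as the authors deposited them. Each deposited p-value is from the DESeq comparison made by the authors, raw and adjusted, and only the calls named as theirs use it.

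Whole reads per library were derived from the deposited means, with a tolerance of 0.0001 reads, which gave 15068 of 15070 values per group (99.99%) and all 15065 genes. The 5 HTSeq summary values, 80.3% of the mean total for GFP and 82.6% for Rrp6, stayed out of library sizes and tests. Of the IDs, 14085 matched a symbol and 980 did not.

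edgeR 4.0.16 (R 4.3.3, TMM, filterByExpr with a minimum count of 10, quasi-likelihood test, Benjamini-Hochberg adjustment) was fitted to the 7 S2 poly(A) libraries with depth class as a block, and a joint fit over S2 and S3 gave the difference between lines. The scripts were tested on simulated data, drawn without a difference between depth classes, so that test cannot judge the block. SE is the size of the log2 change divided by the root of the F statistic. The files had been expected to hold counts and hold means of counts, so the count test runs on recovered reads.

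The members, the 49 gene lists (1912 genes) and the tests were chosen with earlier results of these data known. The block was taken over from an earlier analysis of these data that chose it after seeing the number of calls with and without it. The labels pair libraries only by replicate number, and deviations of deeper from shallower libraries correlated across 7905 genes at 0.673 (GFP with Csl4), 0.681 (GFP with Rrp6) and 0.646 (Csl4 with Rrp6).

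Named genes are, per class and direction, up to 3 called genes with the largest change among those with at least 50 reads in the 4 libraries. Other genes named were chosen after their values were seen. Alternatives were no block, RLE scaling, no filter, DESeq2 1.42.0 with the block, the 4 libraries alone and each library left out in turn. Promoter motifs and chromosome positions were not analysed here.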

Additional observations from a re-analysis of the deposited data

Results flagged for a closer look

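The change with Rrp6 dsRNA differed between S2 and S3 cells, by the test of the difference itself in the joint edgeR fit, for 9 of the genes chosen by size of change and for 6 JNK and transporter genes named with that comparison, given here as the log2 change in S2 minus that in S3 ± SE with the edgeR adjusted p. The Egfr inhibitor gene aos differed by -4.32 ± 0.46 (edgeR adjusted p 0.00039), since it fell in S2 and rose in S3 cells. The minor spliceosome RNA genes snRNA:U12 and snRNA:U11 differed by 4.16 ± 0.57 (edgeR adjusted p 0.0018) and 3.17 ± 0.50 (edgeR adjusted p 0.00387), higher in both lines and more so in S2. Mct1, for a monocarboxylate transporter, differed by 2.73 ± 0.40 (edgeR adjusted p 0.00276) and Idh, for isocitrate dehydrogenase, by 1.90 ± 0.33 (edgeR adjusted p 0.00739). The calls of aos and snRNA:U12 held in 9 of 9 fits that leave out a library, those of snRNA:U11 and Mct1 in 8 and that of Idh in 7. snRNA:U11 lost its call without the deeper S2 library with Rrp6 dsRNA, Mct1 without S2 GFP replicate 1, and Idh without each of these.

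Differences that held in at most 3 of the 9 fits were those of abd-A at 3.23 ± 0.78 (edgeR adjusted p 0.041), osk at 2.81 ± 0.71 (edgeR adjusted p 0.0497), Baldspot at 2.68 ± 0.66 (edgeR adjusted p 0.0428) and Atg18b at -1.49 ± 0.36 (edgeR adjusted p 0.0414). Baldspot overlaps the gene of snRNA:U12.

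Among JNK genes the change was lower in S2 than in S3 cells for scaf, at -3.77 ± 0.41 (edgeR adjusted p 0.00039), Mmp1, at -3.25 ± 0.50 (edgeR adjusted p 0.00323), and kay, at -2.36 ± 0.54 (edgeR adjusted p 0.0336). These calls held in 9, 7 and 2 of the 9 fits. Among transporter genes it was lower for Sur, at -3.54 ± 0.51 (edgeR adjusted p 0.00229), CG4822, at -2.61 ± 0.63 (edgeR adjusted p 0.03995), and CG5853, at -1.98 ± 0.45 (edgeR adjusted p 0.0313), and these held in 7, 3 and 2 fits. Mmp1 and Sur lost their calls without S2 GFP replicate 1 or the deeper S2 library with Rrp6 dsRNA. Without the depth-class block, the difference was called for 1 gene in all.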

How the results depend on the processing

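Each result was recomputed under the alternatives. Without the depth-class block, edgeR called 9 genes higher and 0 lower with Rrp6 against GFP dsRNA, 0 and 0 against Csl4 dsRNA, and 1 and 0 for the difference between lines. In the classes that fit called 1 P450, 1 activity-regulated and 1 chemosensory gene and 0 members of every other class. Its construction leaves the difference between deeper and shallower libraries in the spread. DESeq2 called 1056 higher and 779 lower, and 44 of 213 named genes lost their call, among them GstD6 (DESeq2 adjusted p 0.252) and Hr38 (DESeq2 adjusted p 0.124). Where edgeR called at least 5 members and the DESeq2 count differed by over 1.5 times, DESeq2 called higher 9 glutathione S-transferase, 5 matrix, 4 Wnt, Hedgehog and TGF-beta, 3 immune, 3 redox, 3 chromatin, 3 activity-regulated, 3 neuronal and muscle and 2 Hippo genes. It called lower 8 trafficking, 5 chromatin, 5 lysosomal, 4 translation factor, 3 biogenesis, 3 lipid synthesis, 3 matrix, 3 stress response, 2 synthetase, 2 small RNA and 1 polymerase I and III gene. Of the 2 Hox calls 0 were left. The cause was not tested. RLE scaling gave 1735 and 1250, which moved the share of higher calls from 54.5 to 58.1%, no filter 1709 and 1579 of 12347, and the 4 libraries alone 1642 and 1380 of 8072.

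Leaving out 1 library gave 756 to 1444 higher and 413 to 1277 lower genes against GFP, 133 to 586 and 50 to 367 against Csl4, and 8 to 323 and 18 to 371 between lines. By class the lower calls ran from 25 to 46 (mitochondrial ribosome), 28 to 42 (respiratory chain), 6 to 7 (tricarboxylic acid cycle), 8 to 10 (nucleotide synthesis), 1 to 19 (proteasome), 5 to 11 (spliceosome), 1 to 4 (RNA polymerase I and III) and 2 to 3 (stress response). The higher calls ran from 2 to 6 (glycolysis), 7 to 17 (P450), 6 to 14 (glutathione S-transferases), 5 to 9 (ABC transporters), 3 to 4 (stress response), 8 to 10 (JNK), 3 to 4 (activity-regulated), 4 to 6 (ecdysone), 8 to 12 (chemosensory) and 3 to 6 (neuronal and muscle). The group that lost a library then has fewer, and a lone library is assumed to vary like those of the other groups. Of the named genes, 3 changed sign, each without GFP replicate 1. Over the fits that leave out a library gb ran from -1.30 to 0.14, GstD6 from -0.022 to 3.82 and DptB from -2.66 to 0.19. The shallower libraries limit genes with few reads, which rest on the deeper library of each group.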
